A study of Rattus norvegicus with 16 samples.

Results

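The hairpins rno-mir-103-1, rno-mir-103-2 and rno-mir-107 give rise to miR-103 and miR-107, a pair of microRNAs that differ by a single base. All reads placed on these 3 hairpins, of 392 hairpins with reads in the files, were gathered by name, and the reads of both mir-103 hairpins were summed because their 3p arms are identical. The 16 small RNA libraries came from adult male rats of 2 inbred strains. BN-Lx is a brown Norway rat that carries the polydactyly-luxate syndrome, and SHR is the spontaneously hypertensive rat. The labels name no treatment and no engineered allele in either strain. In each strain 1 rat gave 6 whole organs, brain, heart, kidney, liver, spleen and testis (12 libraries), and 2 further rats gave 1 liver each (4 libraries), so that only liver had 3 rats per strain. Whole organs were ground, so a lower level in a tissue cannot be told apart from a smaller share of the cells that hold the microRNA.

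MicroRNAs are cut from a hairpin precursor as a duplex of a 5p and a 3p arm, and as a rule 1 arm is kept to guide the silencing complex to messenger RNAs through its seed, the bases near the 5′ end. In miR-103 and miR-107 the kept arm is the 3p arm. Their hairpins lie within the introns of pantothenate kinase genes, the enzymes that open coenzyme A synthesis, and both microRNAs have been studied for their part in glucose and lipid metabolism and in insulin sensitivity. Their seed partly overlaps that of the mir-15 and mir-16 group, which shares the letters AGCAGC shifted by 1 base.

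The mature 3p sequences of RefSeq (build GRCr8) are shown because every measurement of the ratio of both microRNAs rests on their single difference. Capitals mark the seed, bases 2 to 8 from the 5′ end.
miR-103-3p: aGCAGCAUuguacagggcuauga
miR-107-3p: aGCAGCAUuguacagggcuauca
The difference is G22C, in which miR-103-3p has the first letter and miR-107-3p the second, counted from the mature 5′ end. Of 693 mature rat names in the RefSeq table, only these 2 share the seed GCAGCAU. A further 5 carry AGCAGCA at bases 2 to 8, and miR-15b-5p and miR-195-5p are printed to show the shift.
miR-15b-5p: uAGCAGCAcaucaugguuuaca
miR-195-5p: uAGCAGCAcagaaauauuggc

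The 3 hairpins are shown with both arms in capitals, since the 5p arm is the only stretch of mature sequence that tells mir-103-1 from mir-103-2. In GRCr8, mir-103-1 lay at chr10:20748474-20748559 on the plus strand within Pank3, mir-103-2 at chr3:138963227-138963312 on the plus strand within Pank2, and mir-107 at chr1:241750418-241750504 on the minus strand within Pank1. Each hairpin had the strand of the gene that spanned it.
mir-103-1: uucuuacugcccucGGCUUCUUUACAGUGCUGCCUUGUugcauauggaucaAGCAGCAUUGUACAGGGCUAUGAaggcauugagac
mir-103-2: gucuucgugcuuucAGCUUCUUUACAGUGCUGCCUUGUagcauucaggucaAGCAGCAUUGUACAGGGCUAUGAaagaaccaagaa
mir-107: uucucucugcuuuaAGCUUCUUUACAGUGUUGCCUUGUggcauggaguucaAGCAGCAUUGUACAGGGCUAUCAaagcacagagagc
Counted from the first base of the 5p arm, mir-103-1 and mir-103-2 differed by G1A, and mir-103-2 and mir-107 by C16U. In all 3 hairpins base 24, the first base after the mature 3p arm, is the same letter.

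Over the 16 libraries the 3 hairpins held 401851 of 15196294 reads, or 2.64%. The 3p arm of mir-103 held 325604 reads and that of mir-107 held 75127. The 5p arms held 582 reads for mir-103 and 538 for mir-107. The libraries of the six-tissue set other than testis held 403453 to 1064894 reads, both testis libraries 26880 and 29131, and the 4 further livers 1167607 to 3229461. Intervals given below are 95% exact binomial intervals and cover counting error only, because reads copied by PCR are not independent molecules. Of 18 tissue marker microRNAs, 16 were highest in a tissue they mark in both strains. The exceptions were the kidney markers miR-194-5p and miR-204-5p, and miR-192-5p, listed for liver and kidney, was highest in liver.

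In these rats miR-103-3p was among the most abundant microRNAs of testis, brain and kidney. RPM, used for every level here, are reads of an arm scaled to 1000000 reads on all hairpins of its library. In testis miR-103-3p reached 111471 RPM in BN-Lx and 65017 in SHR. In brain it held 69064 and 45703, in kidney 61615 and 53728. In these 6 libraries it ranked 2 or 3 among all arms. In spleen miR-103-3p was lower, at 30347 and 39853 RPM. In heart it held 19518 and 21659, and in the liver of the same rats 19837 and 18148. The order of the tissue means was thus testis, kidney, brain, spleen, heart and liver. The strains overlapped between kidney and brain and between heart and liver, so these neighbours did not separate beyond the difference between the 2 rats.

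In the six-tissue set miR-107-3p had another order, with kidney first and spleen last. Kidney held 19849 RPM in BN-Lx and 17140 in SHR. Testis held 7577 and 15447, the widest gap between the strains of any tissue. Brain held 9616 and 8807. Heart, with 6822 and 7885, came close to brain without overlapping it. The first livers held 3390 and 5301, and spleen held 3066 and 3660. Neighbours overlapped between testis and brain and between liver and spleen. The spleen, above heart and liver for miR-103-3p, was thus the lowest tissue of the six-tissue set for miR-107-3p. The 4 further livers, with a mean of 2182 ± 467 RPM (SD), all lay below both spleens. The plot of levels by tissue shows the 2 orders side by side.

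**Figure D1:**
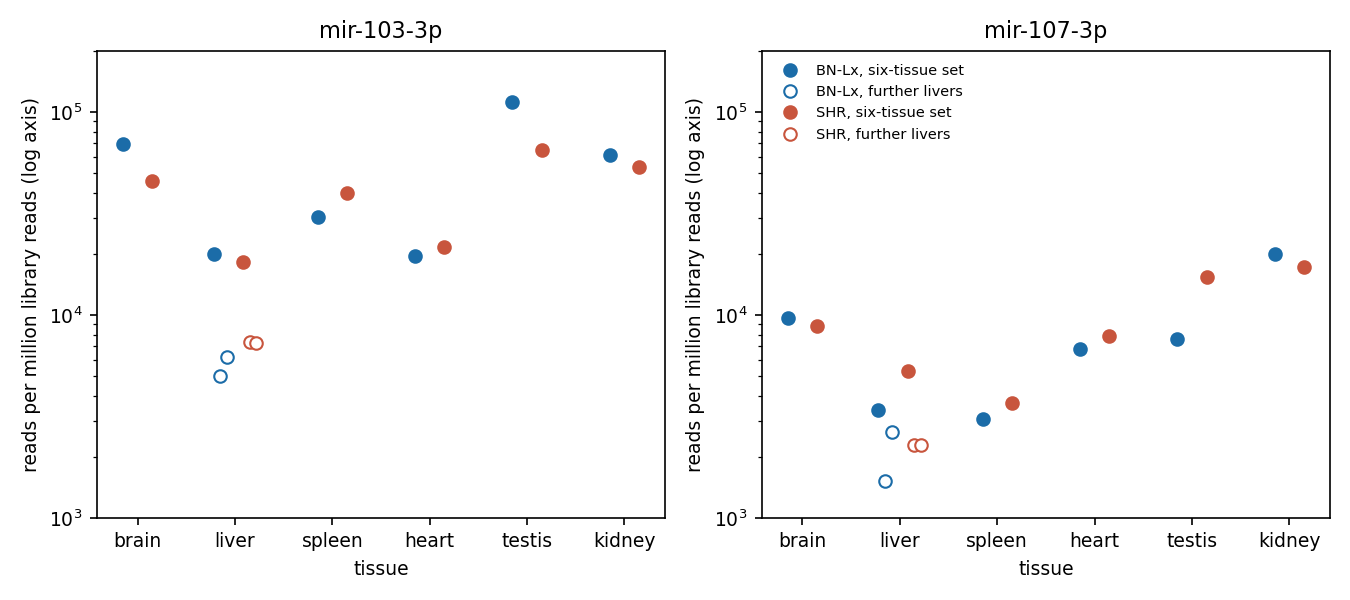
RPM (log axis) of mir-103-3p, left, and mir-107-3p, right, by tissue; each point is 1 library, filled for the six-tissue set and open for the 4 further livers. Mir-103-3p was highest in testis, at 111471 and 65017, and mir-107-3p in kidney, at 19849 and 17140. The further livers lay below the first livers for both arms.

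Differences across the 6 tissues were tested by edgeR's quasi-likelihood F test over the 12 libraries, with strain as a term and adjustment by the Benjamini-Hochberg method over 455 arms. Both arms passed at an adjusted p below 0.05. For mir-103-3p the range of tissue means was 1.07 on the log2 scale (adjusted p = 0.0240, edgeR), and for mir-107-3p it was 2.12 (adjusted p = 0.00329, edgeR). Of all arms tested 82.9% passed the same test, so a call across tissues was the rule among microRNAs. Mir-103-5p and mir-107-5p did not pass (edgeR adjusted p = 0.238 and 0.380), at a depth of 2 to 159 reads per library for mir-103-5p and 2 to 72 for mir-107-5p. The call of mir-103-3p was lost without BN-Lx liver 1, without BN-Lx heart or without BN-Lx kidney, with edgeR adjusted p values from 0.0509 to 0.0684.

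Each tissue was then set against the mean of the other 5 in the same fit. In kidney mir-107-3p rose by 1.56 ± 0.278 (log2, SE, edgeR adjusted p = 0.00168), beside 15.4% of all arms called above in kidney. Mir-103-3p rose in kidney by 0.66 ± 0.204 (edgeR adjusted p = 0.0373). In spleen mir-107-3p fell by 0.99 ± 0.333 (log2, SE, edgeR adjusted p = 0.0419), beside 10.3% of all arms called below in spleen, while mir-103-3p gave 0.24 ± 0.210 (edgeR adjusted p = 0.494), a value that turned to between -0.20 and -0.072 under the other scalings. The calls of mir-103-3p in kidney and of mir-107-3p in spleen were each lost when any of 7 of the 12 libraries was left out. In heart mir-103-3p gave -0.63 ± 0.225 (edgeR adjusted p = 0.0713) and mir-107-3p gave 0.41 ± 0.299 (edgeR adjusted p = 0.400), or 0.25 to -0.10 under the other scalings. With these scalings mir-103-3p in heart gave -0.81 to -1.16 and passed (edgeR adjusted p from 0.00705 to 0.0259). In liver mir-103-3p gave -0.44 (edgeR adjusted p = 0.183) and mir-107-3p gave -0.18 (edgeR adjusted p = 0.852). Mir-103-3p in liver passed with the ocm, the study's outlier-corrected mean over arms (-0.78, edgeR adjusted p = 0.0401), and with total reads (-1.28, edgeR adjusted p = 0.00249), and mir-107-3p, of the 4 scalings, only with total reads (-1.02, edgeR adjusted p = 0.0238).

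How libraries were scaled moved these tissue values. TMM, the scaling of the main fit, gave all arms in testis a median of -0.86 (log2 against the other tissues), and scaling by total reads moved that median by 1.04. Mir-103-3p in testis was not called with TMM (0.32, edgeR adjusted p = 0.309) and passed with RLE, a median-ratio scaling (0.71, edgeR adjusted p = 0.0223), with the ocm (1.37, edgeR adjusted p = 0.000528) and with total reads (1.36, edgeR adjusted p = 0.000359). Subtracting the median of all arms in the same tissue takes out the scaling by construction, so these relative values do not test the order of tissues. On that scale mir-103-3p stood at 1.18 in testis, 0.46 in kidney, 0.16 in spleen, -0.085 in liver, -0.29 in heart and -0.56 in brain (log2, TMM). On the same relative scale mir-107-3p stood at 1.36 in kidney, 0.74 in heart, 0.52 in testis, 0.17 in liver, -0.86 in brain and -1.06 in spleen. The call of mir-107-3p in kidney held under all 4 scalings (edgeR adjusted p from 0.00106 to 0.00439), and that of mir-103-3p in kidney did not (edgeR adjusted p = 0.260 with RLE and 0.301 with the ocm). Without the BN-Lx kidney the value of mir-107-3p was 1.15 (edgeR adjusted p = 0.0507).

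By a rule of at least 5-fold above every other tissue in both strains, 30.2% of 696 arms were specific to a tissue, and by the reverse rule 6.03% were avoidant. Neither miR-103-3p nor miR-107-3p met either rule. After division by the ocm, miR-103-3p in its highest tissue, testis, stood 1.91-fold above the next tissue in BN-Lx and 1.45-fold in SHR. MiR-107-3p stood 2.12-fold above the next tissue in BN-Lx, where kidney was highest, and 1.08-fold in SHR, where testis was highest.

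The ratio of miR-103-3p to miR-107-3p needs no scaling, because both are counted in the same library. It was above 1 in all 16 libraries and ran from 2.36 to 14.7, with a median of 3.35. Heart and kidney had low ratios that were close between the strains. In heart the ratio was 2.86 (interval 2.74 to 2.99) in BN-Lx and 2.75 (2.66 to 2.84) in SHR. In kidney it was 3.10 (3.04 to 3.17) and 3.13 (3.07 to 3.21). Spleen had a high ratio in both rats, 9.90 (9.48 to 10.3) and 10.9 (10.4 to 11.4).

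In the other tissues the strains lay further apart. Brain gave 7.18 in BN-Lx and 5.19 in SHR, and the first livers 5.85 and 3.42. Testis gave 14.7 (12.7 to 17.01) in BN-Lx and 4.21 (3.80 to 4.67) in SHR, from the shallowest libraries of the set. In the BN-Lx testis only 203.7 reads were assigned to mir-107-3p, and 43.5% of these were shares of reads too short to tell it from mir-103. Among the ordered tissue means of the six-tissue set, the lowest neighbours, liver, kidney and heart, did not overlap, and spleen, testis, brain and liver overlapped in turn. The 4 further livers, with ratios from 2.36 to 3.27, spanned the values of kidney and heart, so liver did not separate from them once these were included.

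An exact permutation test, with tissue labels exchanged within each strain (720 orders), gave a range of tissue means of 1.89 on the log2 scale and p = 0.0792 for the ratio, with spleen highest and heart lowest. Adjusted over the 6 tests on ratio and shares, the permutation p was 0.237. Without the testis libraries the range was the same, since testis was neither the highest nor the lowest tissue, and the exact permutation p was 0.00833, the smallest that 5 tissues in 2 strains allow, or 0.05 after adjustment. The testis libraries were the shallowest, with 26880 and 29131 reads, and had more PCR cycles, whose part was not tested.

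**Figure D2:**
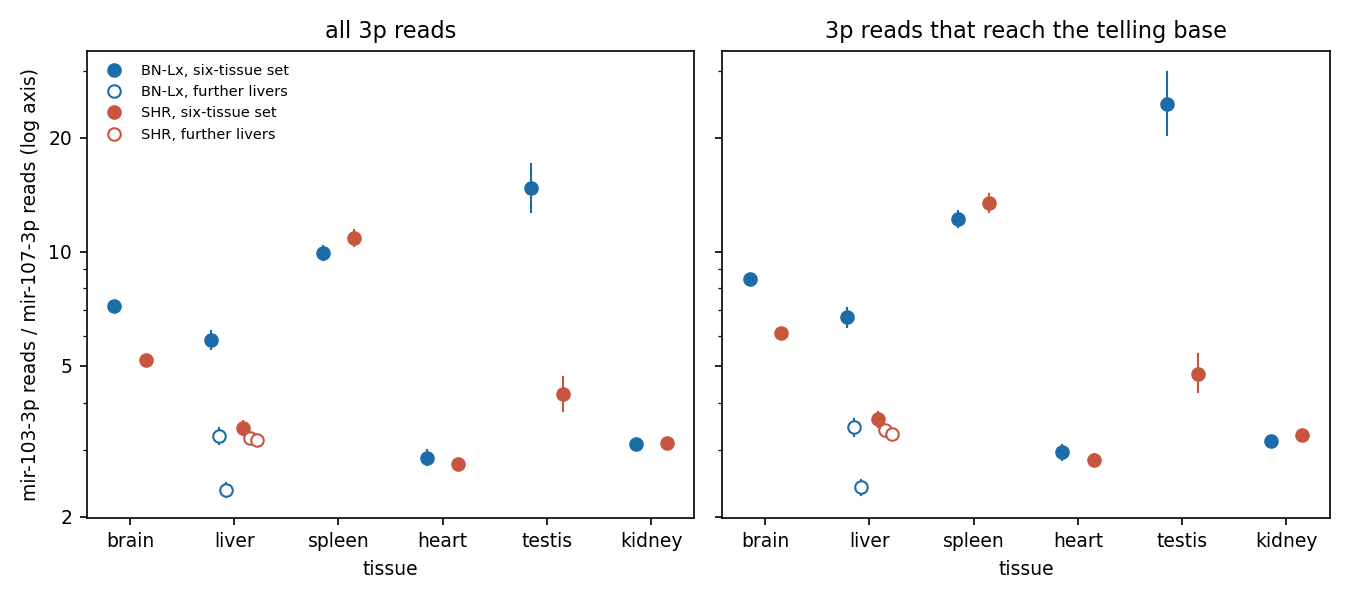
Ratio of mir-103-3p to mir-107-3p reads (log axis) by tissue for all 3p reads, left, and for reads that reach base 22, right; points are libraries and bars are 95% exact binomial intervals. Spleen lay at 9.90 and 10.9 for all reads, heart and kidney at 2.75 to 3.13, and the 2 testis libraries lay apart, at 14.7 and 4.21.

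Only a read that reaches base 22 can tell miR-103-3p from miR-107-3p. Such reads, called telling reads here, were 88.4% to 96.4% of the 3p reads. Reads that ended at or before base 21 had been divided evenly over the 3 hairpins, within 0.01 read at 86 of 86 positions checked. A shorter read thus added 2 parts to mir-103 and 1 part to mir-107 whatever its source, which drew every ratio towards 2. With telling reads alone the ratio rose in all tissues, to between 2.82 and 24.5 in the six-tissue set. It was 12.2 and 13.4 in spleen, 8.45 and 6.12 in brain, 2.96 and 2.82 in heart, and 3.16 and 3.27 in kidney (BN-Lx first). The tissue order kept spleen above brain and liver, with heart lowest on the log scale, and the exact permutation p was 0.107. The share of telling reads itself gave an exact permutation p of 0.271 across tissues.

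In liver, where each strain had 3 rats, the strains were compared. The BN-Lx livers held 19837, 4986 and 6203 RPM of miR-103-3p, beside 18148, 7343 and 7268 for SHR. The strains overlapped, where 9.26% of all arms did not, and the highest value of each strain was the liver of the six-tissue set. For miR-107-3p the BN-Lx livers held 3390, 1526 and 2633 RPM, beside 5301, 2283 and 2288 for SHR, again overlapping. The fitted difference, SHR over BN-Lx, was 0.02 ± 0.556 on the log2 scale for mir-103-3p and 0.31 ± 0.408 for mir-107-3p (SE, edgeR adjusted p = 0.994 for both). Of 270 arms tested 0% passed in edgeR, with 6 arms at an unadjusted p under 0.05, 1 arm called by DESeq2 and 5 by the window test of the study's methods.

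The 2 sets of livers differed more than the strains did. The mean level of miR-103-3p was 18993 ± 1194 RPM (SD, n = 2) in the first livers and 6450 ± 1106 (SD, n = 4) in the further livers, a ratio of 2.94. For miR-107-3p the means were 4345 ± 1352 and 2182 ± 467, a ratio of 1.99. After division by the ocm these ratios were smaller, 2.46 for miR-103-3p and 1.66 for miR-107-3p. The shortest reads were 15 nt in the further livers and 17 nt in all other libraries, and set and rat cannot be told apart here. Summed markers of white blood cells, erythrocytes and brain were higher in the first livers, and each of these markers was detected in every liver. The 3 white blood cell markers summed to 11855 and 14116 RPM in the first livers and to 4642 to 8272 in the further livers, the 3 erythrocyte markers to 8478 and 9413 against 2139 to 6184, and the 3 brain markers to 494 and 607 against 55.5 to 180.2. Not every marker followed its sum. The white blood cell marker miR-142-3p held 98.3 and 77.8 RPM in the first livers (BN-Lx first) and 164.4 to 360.6 in the further livers. Among the erythrocyte markers, the arms of miR-144 overlapped between the sets. The part of all these markers in the difference was not tested. Without the first livers the strain difference was 0.52 for mir-103-3p (edgeR adjusted p = 0.299) and 0.30 for mir-107-3p (edgeR adjusted p = 0.690).

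The liver ratio did not separate the strains. The 3 BN-Lx livers had ratios of 5.85, 3.27 and 2.36. Those of SHR were 3.42, 3.22 and 3.18. All SHR values lay within the BN-Lx range, and the SHR livers differed little among themselves. On the log2 scale the means were 1.83 ± 0.665 in BN-Lx and 1.71 ± 0.0579 in SHR (SD, n = 3), a difference of -0.12 (SHR minus BN-Lx) with a two-sided exact permutation p of 0.8, where 0.1 is the smallest this design allows. In the 4 further livers alone the difference was 0.20, and without BN-Lx liver 1 it was 0.24 (exact permutation p = 0.3), so its direction rested on that library.

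The 3′ end of the assigned reads set miR-107-3p apart from miR-103-3p in every library. A read ending at base 22 is assigned by that last base alone. A base added to the end of a shorter read would be counted alike, and its part was not tested. Among telling reads pooled over all libraries, 95.2% of those of miR-103-3p ended at base 23, the annotated end, 3.10% ended 1 base earlier and 1.62% 1 base later. For miR-107-3p 72.6% ended at base 23, 22.8% at base 22 and 4.38% at base 24. The share ending at base 22 ran from 2.14% to 4.80% for miR-103-3p and from 16.04% to 38.2% for miR-107-3p, so that the 2 ranges did not overlap. Averaged within rats, the shares were 2.86% ± 0.417 and 20.3% ± 5.31 (SD, n = 6 rats). The difference of 17.4 ± 5.17 percentage points had the same direction in 6 of 6 rats and in 16 of 16 libraries (exact sign-flip p = 0.0312, the smallest that 6 rats allow). It was 18.6 points in the liver libraries alone, within 1 tissue, with the same exact p.

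Reads assigned to miR-107-3p ended at base 22 more often in all tissues, with some spread. In brain 23.04% and 25.8% of its telling reads ended at base 22, in heart 23.7% and 26.4%, and in kidney 23.6% and 24.8% (BN-Lx first). Spleen gave 23.8% and 27.9%. The highest shares were those of the BN-Lx liver 1, with 38.2%, and the BN-Lx testis, with 37.4%. These are also the libraries whose ratio exceeded that of the other strain by most. The lowest shares, 16.04% to 18.6%, were those of the 4 further livers, which had the highest shares ending at base 24 other than that of BN-Lx liver 1, from 7.29% to 11.04%. In the BN-Lx testis 0 of 115 telling reads of miR-107-3p ended at base 24, which allows a share of up to 2.61%.

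**Figure D3:**
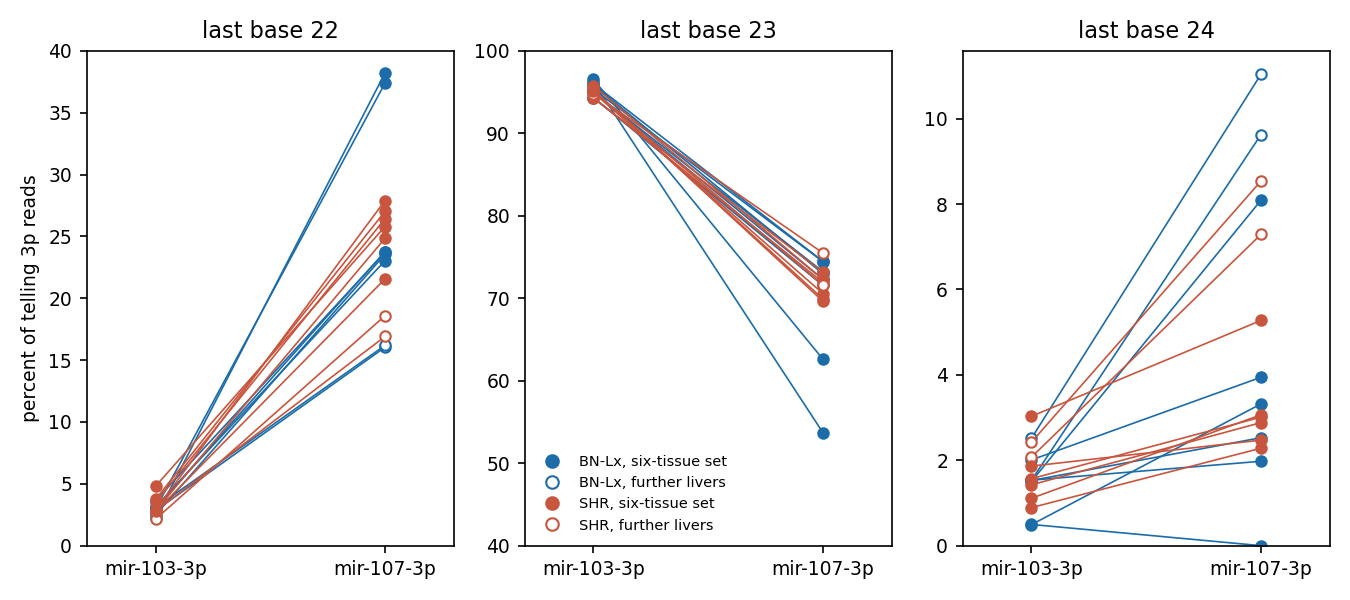
Percent of telling 3p reads that ended at base 22, 23 or 24 (3 panels) for mir-103-3p and mir-107-3p; a line joins both values of 1 library, and the axis of the middle panel starts at 40. At base 22 the mir-107-3p values, 16.04% to 38.2%, lay above all mir-103-3p values, 2.14% to 4.80%.

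The ratio therefore depended on which reads were counted. For reads ending at base 22 it ran from 0.332 to 1.95, with a median of 0.502, and miR-107-3p outnumbered miR-103-3p in all heart, liver and kidney libraries and in the SHR testis. In BN-Lx kidney 803 reads of miR-103-3p and 2419 of miR-107-3p ended there, a ratio of 0.332 (0.306 to 0.360). For reads ending at base 23 the ratio ran from 3.10 to 37.8, with a median of 4.59, and miR-103-3p was the more abundant in all libraries. At base 24 it ran from 0.380 to 10.1 over 15 libraries. Spleen kept the highest tissue mean with reads ending at base 22 (range of tissue means 2.07, exact permutation p = 0.0403) and with reads ending at base 23 (range 2.16, exact permutation p = 0.153). Adjusted over the 6 tests these were 0.171 and 0.306. The lowest tissue was kidney for base 22 and heart for base 23.

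**Figure D4:**
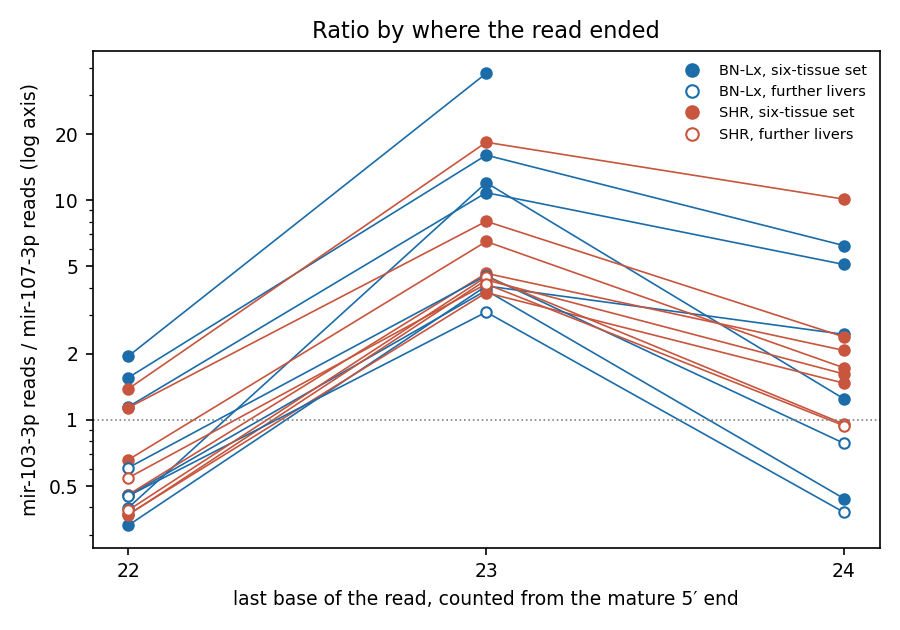
Ratio of mir-103-3p to mir-107-3p reads (log axis) against the last base of the read; a line joins the values of 1 library, and the dotted line marks equal reads. The ratio rose from 0.332 to 1.95 at base 22 to between 3.10 and 37.8 at base 23 and fell again at base 24 in every library with reads of both.

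The 5′ end, which sets the seed, hardly varied. Of the 3p reads of all 3 hairpins, 99.3% to 99.8% began at base 1. A shifted start at base 3 held 1567 of 305862 telling reads of miR-103-3p, or 0.512%, and 20 of 65255 of miR-107-3p, or 0.0306%. It was found for miR-103-3p in all 16 libraries, and 10 libraries had no such read of miR-107-3p. By rat the shares were 0.388% ± 0.117 and 0.0109% ± 0.0171 (SD, n = 6 rats), lower for miR-107-3p in 6 of 6 rats (exact sign-flip p = 0.0312). A read that begins at base 3 lacks the first 2 bases and carries another seed. Across tissues the share with the main start gave an exact permutation p of 0.135.

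The 5p arms, the partner strands of the duplex, were rare. They made up 0.0635% to 0.263% of the reads of mir-103 and 0.254% to 1.32% of those of mir-107. In all 16 libraries the share was higher for mir-107. By rat it was 0.178% ± 0.0603 for mir-103 and 0.917% ± 0.154 for mir-107 (SD, n = 6 rats), a difference of 0.740 ± 0.110 points with the same direction in 6 of 6 rats (exact sign-flip p = 0.0312). The exact p of all 3 measures compared by rat was also 0.0312 after adjustment over them. Although mir-107 had fewer 3p reads than mir-103 in every library, its 5p arm had at least as many reads as that of mir-103 in 11 of 16 libraries.

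In the six-tissue set the 5p share of mir-103 was highest in brain, with 0.216% (159 reads, 0.184% to 0.252%) in BN-Lx and 0.254% (100 reads, 0.206% to 0.308%) in SHR. Among the further livers BN-Lx liver 2 had 0.263% (18 reads, 0.156% to 0.415%), the highest share of any library. In the six-tissue set the mean of both strains was lowest in testis and heart. Testis gave 0.0667% (2 reads, 0.00808% to 0.241%) in BN-Lx and 0.105% (2 reads, 0.0128% to 0.381%) in SHR. Heart gave 0.0635% (5 reads, 0.0206% to 0.148%) and 0.139% (19 reads, 0.0837% to 0.217%). The SHR heart did not separate from kidney, which had 0.137% and 0.140%. The exact permutation p was 0.0569, or 0.237 adjusted over the 6 tests. The 5p share of mir-107 was 0.254% and 0.560% in heart, 0.452% and 0.563% in kidney, and 0.972% and 1.32% in testis, where it rested on 2 and 6 reads. Its exact permutation p was 0.219. Without the BN-Lx spleen, where the share was 1.18% against 0.492% in SHR, the adjusted permutation p was 0.0417.

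**Figure D5:**
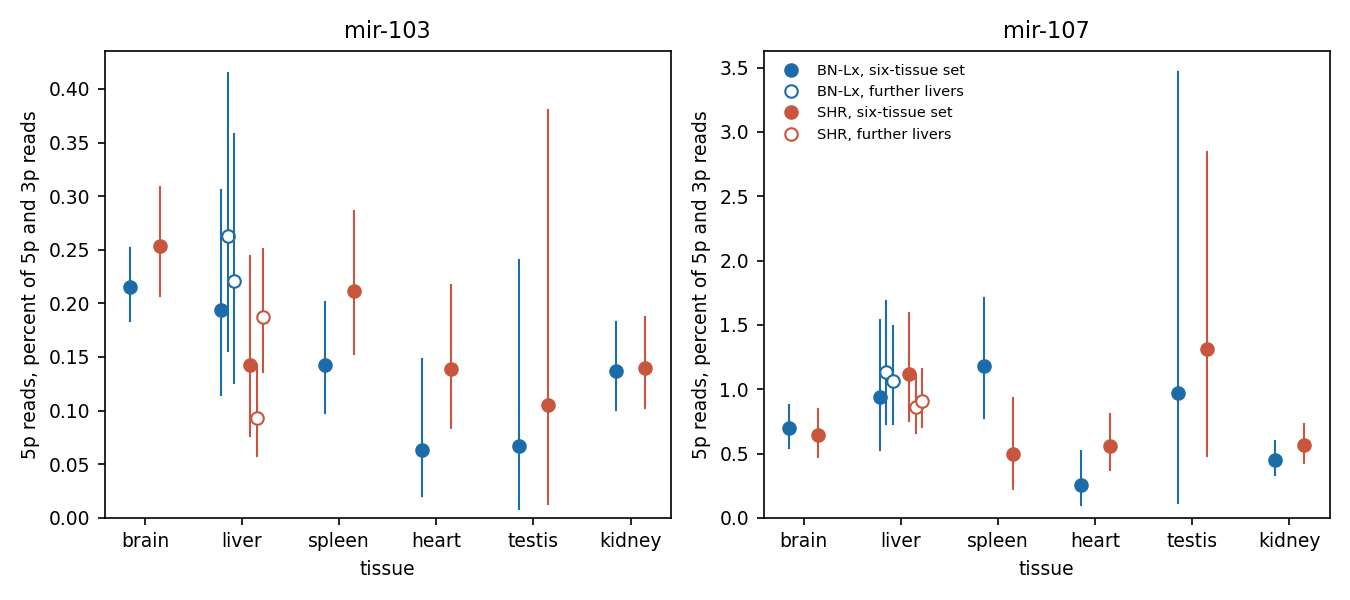
Share of 5p reads in percent of the 5p and 3p reads of mir-103, left, and mir-107, right, by tissue; points are libraries, bars are 95% exact binomial intervals, and the axes differ in range. The shares lay between 0.0635% and 0.263% for mir-103 and between 0.254% and 1.32% for mir-107.

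The 5p arm tells which mir-103 hairpin a read fits, as do the few 3p reads that run past the mature arm to base 25. Base 25 is G in mir-103-1 and A in mir-103-2. It is the last base of such a read, so a base added to the 3′ end cannot be told from it. The 3p reads of both hairpins were equal within 0.01 read at every position that ended at base 22 or 23. Reads ending at base 25 numbered 55 for mir-103-1 and 163 for mir-103-2 over all libraries, and 52 and 158 of these came from the 4 further livers. In BN-Lx liver 2 the hairpins had 11 and 10 such reads, while mir-103-2 had the most in the other 3, with 26 against 3, 67 against 16 and 55 against 22 (BN-Lx liver 3, SHR livers 2 and 3). Over all libraries mir-103-1 held 258.5 and mir-103-2 held 323.5 of the 5p reads, and the fractions are reads that fit both. In brain, the deepest tissue for this arm, mir-103-1 had 45.9% (38.0% to 54.0%) in BN-Lx and 47.0% (36.9% to 57.2%) in SHR. In kidney it had 38.0% and 37.8%. The lowest share with over 40 reads was that of the SHR spleen, 19.05% (8.60% to 34.1%), where the BN-Lx spleen had 53.1% (34.7% to 70.9%). The exact permutation p across tissues was 0.497.

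Arms whose level followed each member most closely were sought among 98 arms with at least 10 reads in each of the 12 libraries of the six-tissue set, after division by the ocm. Pearson's r is given as a description, since the 12 libraries share 2 rats and the testis libraries are shallow. For miR-103-3p the closest were miR-34c-5p (r = 0.873), a testis microRNA, miR-494-3p (r = 0.869) and miR-204-5p (r = 0.790). For miR-107-3p they were 2 hairpins of let-7c (r = 0.728 and 0.722), whose shared reads cannot be told apart, and miR-125a-5p (r = 0.710). With each other miR-103-3p and miR-107-3p had r = 0.419. The named arms were picked as the highest of the 98, so any other arm is lower by construction.

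The 5p arms of mir-15b, mir-16, mir-195, mir-322, mir-497 and mir-503, arms with a related seed, were all tested. MiR-503-5p is not among the 5 names that carry AGCAGCA at bases 2 to 8. MiR-16-5p had 0 reads in both testis libraries, which enter each of its contrasts, so it is left out of the counts across 6 tissues. Against the other tissues 3 of the other 5 fell in brain, 1 rose in spleen, 1 rose in heart, and in kidney 1 rose and 1 fell. MiR-503-5p was the arm that rose in kidney and was among those that fell in brain, where it had 16 and 1 reads (BN-Lx first). None of the 5 passed in liver or testis. Among all 455 arms, 38.9% were called above and 23.1% below in brain, 19.3% and 10.3% in spleen, 12.1% and 7.03% in heart, 15.4% and 6.59% in kidney, 14.3% and 11.2% in liver, and 11.2% and 13.2% in testis. MiR-15b-5p rose in spleen by 2.71 ± 0.332 (log2, SE, edgeR adjusted p = 8.95e-05), where it held 11784 and 8873 RPM (BN-Lx first). MiR-322-5p rose in heart by 2.61 ± 0.373 (edgeR adjusted p = 0.000260), with 2345 and 1848 RPM. MiR-16-5p held 52.3 to 68.0 RPM in the spleen and kidney libraries and 17.4 to 31.9 in those of brain, heart and the first livers. In a fit without the testis libraries it fell in brain by 1.73 ± 0.528 (log2, SE, edgeR adjusted p = 0.0142) and did not pass in spleen (1.10, edgeR adjusted p = 0.0913) or kidney (0.95, edgeR adjusted p = 0.165). In that fit miR-322-5p also fell in spleen, and the fall of miR-15b-5p in kidney was no longer called. In spleen the median of the 5 arms was 0.67 (log2) beside 0.075 for all 455 arms, and in brain it was -1.56 beside 0.41. In liver the median strain difference of the 6 arms was 0.57 beside -0.10 for all 270 arms tested, and none of the 6 passed.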

How the data were processed

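The authors made small RNA libraries with a ligation-based kit, sequenced them on the SOLiD platform in colour space and placed reads on a set of rat hairpins with SHRiMP, keeping perfect matches that did not overlap the loop. Per the file headers a read that fitted several places was shared equally among them, so the deposited values are estimated counts (expected counts) per hairpin position and library. The methods name RGSC3.4 and miRBase 12, and no coordinates of that build are printed. The testis libraries and the SHR liver of the six-tissue set had more PCR cycles than the others.

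From these files, reads were summed per arm (20 nt around the main peak, the rest being the other arm), and 4436 repeated entries of 1 position were added up. RPM use all hairpin reads of a library. The outlier-corrected mean (ocm), the study's scale, is the mean over known arms without the top 3. Levels were tested with edgeR 4.0.16 in R 4.3.3 on counts rounded to whole numbers (TMM, filterByExpr, quasi-likelihood), with DESeq2 1.42.0 as an alternative. Ratios and shares were tested by exact permutation of libraries, and mir-103 against mir-107 by exact sign flips over 6 rats, with the Benjamini-Hochberg adjustment at 0.05. The comparison by rat, the ratio by last base and the counts of the related arms without miR-16-5p or without testis were chosen after seeing the data. The main edgeR fits and the exact permutation and sign-flip tests were tried on simulated data. DESeq2, the window test and the interaction term were not. The members and lists were chosen with earlier results of these data known. Named beside the members were 6 arms with a related seed and the 3 arms most like each member. Livers with the same replicate number deviated together (correlations of 0.667, 0.570 and 0.300 over 270 arms), so the number was also tried as a block. The labels do not say more about rats than their number, and p-values across tissues rest on 1 rat per strain. Sequences and gene names came from RefSeq tables (GRCr8), and all members matched. The table of piRNA clusters was not used here.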

Additional observations from a re-analysis of the deposited data

Results flagged for a closer look

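The strain difference in the ratio of mir-103-3p to mir-107-3p did not have the same sign in all tissues, each with 1 rat per strain. SHR minus BN-Lx was -1.81 in testis, -0.47 in brain and -0.059 in heart on the log2 scale, and 0.14 in spleen and 0.014 in kidney. In heart and kidney the binomial intervals of the strains overlapped. These intervals cover counting error only, so with 1 rat per strain a strain direction cannot be read in any of these tissues. The difference between tissues in this contrast was not tested for the ratio. The 3 liver pairs gave -0.77, -0.023 and 0.43. For the levels, the strain difference in each other tissue was set against that in liver by an interaction term over 16 libraries. Neither arm passed in any of the 5 tissues: the testis values were -0.99 for mir-103-3p and 0.61 for mir-107-3p (edgeR adjusted p = 0.9999 for both).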

How the results depend on the processing

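The range of tissue means of mir-103-3p, 1.07 in the main fit, passed under RLE, both other scalings, DESeq2, without strain, without testis and with telling reads, and missed the threshold without a filter on low reads (1.01, edgeR adjusted p = 0.0652). Leaving out each library gave 0.92 to 1.33. That of mir-107-3p passed in every alternative run. Scaling turned single tissue values. With RLE mir-103-3p gave 0.30 in brain and -0.072 in spleen, and mir-107-3p gave 0.015 in brain. With the ocm mir-103-3p gave 0.38 in brain and -0.19 in spleen, and mir-107-3p gave 0.10 in brain, -0.10 in heart and 0.66 in testis. With total reads mir-103-3p gave 0.62 in brain (edgeR adjusted p = 0.0245) and -0.20 in spleen, and mir-107-3p gave 0.33 in brain, -0.079 in heart and 0.65 in testis. Without a filter mir-103-3p in brain gave 0.0056. The cause of these turns was not tested beyond the shift of the median of all arms.

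Leaving out each library gave -0.32 to 0.17 for mir-103-3p in brain, -0.47 to 0.074 for mir-107-3p in liver and -0.96 to 0.14 for mir-107-3p in testis. Leaving out each liver gave -0.20 to 0.75 for the strain difference of mir-103-3p and -0.42 to 0.24 for that of the log2 ratio, which was 0.20 in the 4 further livers alone. Between strains 1 arm was called by DESeq2 and 5 by the window test, beside 0 in edgeR, and neither member was among them. With the replicate number as a block the differences were 0.20 for mir-103-3p and 0.32 for mir-107-3p (edgeR adjusted p = 0.853 and 0.712), and the ratio gave -0.12 (exact sign-flip p = 0.75, smallest possible 0.25), so the block changed no call. The 5p share of mir-107 had a range of 0.620 to 0.909 points when each library was left out. In the 4 further livers alone mir-107 minus mir-103 was 14.2 points for the share ending at base 22, -0.321 for the start at base 3 and 0.802 for the 5p share (exact p = 0.125, the smallest possible with 4 rats).

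Tissue comparisons rest on 1 rat per strain, the testis values on few reads, and the 5p shares on 2 to 159 reads per library, so a difference in 5p share between tissues smaller than these intervals was not detectable at this depth. The unscaled levels depend on what else a library holds.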

Other observations

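The reads too short to tell mir-103-3p from mir-107-3p did not fall off evenly with length. In percent of the 3p reads of all 3 hairpins, the median over the six-tissue set was 2.79% for 17 nt, 1.76% for 18 nt, 0.618% for 19 nt, 0.0576% for 20 nt and 2.39% for 21 nt. The 4 further livers stood apart, with 0.155% to 0.493% for 17 nt, below all other libraries, and 6.39% to 6.84% for 21 nt, above all others. In all 16 libraries 20 nt was the least frequent of these 5 lengths. Reads of 21 nt, which end 1 base before the telling base, ran from 1.26% to 6.84%. They were divided evenly over the 3 hairpins, so which microRNA gave them cannot be read from these counts. Of the mir-107-3p estimate, short reads made up 4.91% in BN-Lx kidney and 43.5% in BN-Lx testis, and of the mir-103-3p estimate at most 9.61%.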
